A study of Homo sapiens with 9 samples.

Results

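The HOX genes are transcription factors with a homeodomain that sit in 4 clusters, HOXA to HOXD, and are numbered into 13 paralogue groups by their order along the cluster. All rows whose symbol is HOXA, HOXB, HOXC or HOXD followed by a number were taken, which gave 39 of 29740 rows, 11 in HOXA, 10 in HOXB, 9 in HOXC and 9 in HOXD. Low-numbered (anterior) genes are switched on first and nearest the head of the embryo, high-numbered (posterior) genes later and nearer the tail, and adult cells such as dermal fibroblasts and endothelial cells keep a site-specific set of active members, the HOX code. Polycomb proteins hold silent members shut, Trithorax proteins keep active ones open, retinoic acid can induce anterior members, and HOX proteins bind DNA together with PBX and MEIS cofactors. In endothelium, HOXD3, HOXB3 and HOXA3 are known for angiogenic activity, HOXA5 and HOXD10 for restraining it, and HOXA9 and HOXB5 for control of receptors such as KDR.

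The cells were HMEC-1, an immortalised line of human dermal microvascular endothelial cells, so the libraries come from a single line and their spread is not that between donors. Cells in media with reduced serum received 50 µM trimethylamine N-oxide (TMAO), a metabolite made from gut bacterial products, for 24H or 48H, and RNA was sequenced in 3 libraries of each treated group and 3 libraries of untreated CTRL cells. Untreated cells from the 24H and the 48H experiments form 1 CTRL group without a time label, so time in culture and TMAO cannot be told apart. The labels do not say whether libraries came from separate cultures, so the p-values measure only the spread between these libraries, which may be technical. Total counts ranged from 25205756 to 36927373 per library, and 4 ribosomal RNA genes took 30.7% of those of TMAO 24H replicate 1 and 0.968% to 6.73% elsewhere. HOX genes took 0.0322% to 0.0329% of the counts in CTRL, 0.0294% to 0.0315% at 48H, 0.03103% and 0.0311% in a pair of 24H libraries and 0.0219% in TMAO 24H replicate 1. Of the markers that define endothelium, CDH5, the cadherin of endothelial junctions, was abundant (21222 ± 1857 normalised counts in CTRL, SD, n = 3), while of the lymphatic markers LYVE1 and PROX1 had 7.30 ± 3.10 and 6.65 ± 3.26 and PDPN had 3032 ± 221. Some markers of other cell types were present in CTRL too, with COL1A1 of fibroblasts at 20626 ± 1438 and KRT5 and KRT14 of keratinocytes at 1247 ± 375 and 837 ± 203. CD68 and CD14 of macrophages had 599.5 ± 43.2 and 34.0 ± 5.03, while the leukocyte marker PTPRC had 1.01 ± 1.75. Some others on the same lists had few or no counts in CTRL. PDGFRA of fibroblasts had 10.6 ± 2.32, and DCN and LUM had 0. LYZ and ITGAM of macrophages had 5.34 ± 5.93 and 0.664 ± 1.15. The library TMAO 48H replicate 3 stood apart in some keratinocyte and epithelial genes. It had 125 normalised counts of KRT5 against 1470 and 1119 in replicates 1 and 2, and 67.9 of KRT14 against 1021 and 801. EPCAM had 37.97 against 289.8 and 205, and CDH1 34.5 against 156 and 106. Other genes of that list did not set it apart. KRT18 had 17443 against 16842 and 16663, and KRT8 1411 against 1816 and 1395. KRT19 had 146 against 199 and 135, and TP63, at 31.1 against 50.1 and 46.7, lay within the range of CTRL. In the same library HOXB9 (36.8 against 84.97 and 78.4), HOXA13 (1.15 against 12.8 and 11.4) and HOXA11 (194 against 243 and 302) were lowest of the 9 libraries. So were HOXB4 (375 against 381 and 438), HOXC5, HOXD1, HOXB13 and HOXD11. Of these, HOXA13, HOXC5, HOXB13 and HOXD11 had only 1, 4, 0 and 0 counts there. In the other direction, HOXC4 (105.9), HOXC8 (100.1) and HOXC10 (47.2) were highest of the 9 libraries in this library. How many of all genes were lowest or highest in it was not counted. The part of these values in the HOX results was not tested. Normalised counts are counts divided by the effective library size and multiplied by the mean effective size of 30416647.

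Upstream sequences of 4 HOX genes are shown to set the gene with the highest level (HOXD4) and another well expressed gene (HOXA7) beside the only members at 0 counts in every library (HOXB1 and HOXD12). Each is the 250 bases before the annotated start, taken from RefSeq on build GRCh38.p14 and written 5′ to 3′ on the gene's strand, with each CG in capitals. HOXD4 is at chr2:176151300-176151549 on the plus strand, HOXD12 at chr2:176099545-176099794 on the plus strand, HOXA7 at chr7:27156676-27156925 on the minus strand and HOXB1 at chr17:48531012-48531261 on the minus strand.
HOXD4: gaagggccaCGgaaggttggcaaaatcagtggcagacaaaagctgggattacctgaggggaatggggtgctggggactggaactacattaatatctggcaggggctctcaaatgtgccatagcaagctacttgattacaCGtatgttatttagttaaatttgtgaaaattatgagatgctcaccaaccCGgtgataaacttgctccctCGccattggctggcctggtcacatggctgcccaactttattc
HOXA7: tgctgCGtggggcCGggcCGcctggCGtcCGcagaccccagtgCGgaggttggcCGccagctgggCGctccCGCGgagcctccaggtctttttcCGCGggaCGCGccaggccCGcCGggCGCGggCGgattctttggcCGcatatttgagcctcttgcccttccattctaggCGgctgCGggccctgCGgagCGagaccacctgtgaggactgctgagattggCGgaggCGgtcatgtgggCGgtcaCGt
HOXD12: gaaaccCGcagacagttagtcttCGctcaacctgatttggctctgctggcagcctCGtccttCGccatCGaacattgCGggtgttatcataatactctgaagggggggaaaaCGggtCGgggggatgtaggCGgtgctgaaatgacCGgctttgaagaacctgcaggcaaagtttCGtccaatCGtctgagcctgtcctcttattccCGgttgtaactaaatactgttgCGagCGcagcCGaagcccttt
HOXB1: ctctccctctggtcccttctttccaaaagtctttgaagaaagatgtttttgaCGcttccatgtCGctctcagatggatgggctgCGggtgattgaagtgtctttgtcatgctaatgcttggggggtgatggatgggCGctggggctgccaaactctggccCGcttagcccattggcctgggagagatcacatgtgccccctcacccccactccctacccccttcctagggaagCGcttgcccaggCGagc
The highly expressed HOXD4 had 4 CG and HOXA7 28, while the silent HOXD12 had 16 and HOXB1 7, so these sequences do not order by level. The table held 27 upstream sequences for 20 HOX genes, of which 7 were starts of HOXA3 and 1 was listed for both HOXC4 and HOXC5, which leaves 26 that are distinct. The median was 19 CG over the 27 and 19.5 over the 26, against 11 over all 35116. On either strand, TATAAA occurred in 5 of the 27 (10.7% of all sequences), AGGTCA, a hexamer that retinoic acid receptors bind, in 0 (12.1%) and TGATNNAT, the letters of PBX and HOX binding sites, in 3, those of HOXA2, HOXB1 and HOXD11 (6.47%). A match is a run of letters and not a site shown to be bound.

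Untreated HMEC-1 expressed members of all 4 clusters. With at least 10 counts in every CTRL library as the limit, 30 of 39 members were expressed, 10 of 11 in HOXA, 8 of 10 in HOXB, 6 of 9 in HOXC and 6 of 9 in HOXD. Levels between genes were compared in CPM per kb, counts scaled by library size (CPM) and divided by the length of a gene's exons in kilobases. HOXD4 had the highest level, with 26.8, 25.8 and 33.7 CPM per kb in the 3 CTRL libraries (28.7 ± 4.31, SD, n = 3). HOXD9 followed with 21.9, 22.1 and 22.9 (22.3 ± 0.514). The lowest HOXD4 library lay above the highest of HOXD9. HOXB7 and HOXA7, paralogues of group 7, came next with 13.9 ± 0.674 and 12.8 ± 0.575 CPM per kb, and their libraries overlapped. Levels of 8.71 ± 0.293 for HOXD8, 7.30 ± 0.387 for HOXB6, 6.96 ± 0.200 for HOXA9 and 6.21 ± 0.426 for HOXA5 were measured, of which only the HOXB6 and HOXA9 libraries overlapped between neighbours in this order. HOXA10 (4.14 ± 0.272) and HOXA11 (4.07 ± 0.163) completed the 10 highest and did not differ beyond their spread from each other or, in the case of HOXA11, from HOXB4 (4.001 ± 0.0688). For comparison, the median over 13241 tested genes with a known length was 7.51 CPM per kb, so that HOXD4 stood at the percentile 83.9 of those genes and HOXD9 at 78.7, and 5 HOX genes lay above the median.

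The HOX level was concentrated in few genes. The 3 highest genes held 41.3% to 44.995% of the summed per-length HOX level of a CTRL library and the 10 highest 75.2% to 76.6%. By cluster, HOXD held 42.8% of the level in CTRL (41.6% to 45.1% over the libraries), HOXA 31.5% (29.4% to 33.1%), HOXB 21.2% (20.9% to 21.6%) and HOXC 4.52% (4.27% to 4.65%). No library of a cluster reached the next. The central groups 4 to 8 held 61.4%, the posterior groups 9 to 13 held 27.8% and the anterior groups 1 to 3 held 10.9%. Paralogues of the same group were far apart, which shows in the grid of CTRL levels by cluster and group. In group 4, HOXD4 at 28.7 CPM per kb stood beside HOXB4 at 4.001, HOXA4 at 2.84 and HOXC4 at 1.07, and in group 9, HOXD9 at 22.3 stood beside HOXA9 at 6.96, HOXC9 at 1.34 and HOXB9 at 0.783. Within a cluster, levels dropped sharply at the posterior end. HOXA11 at 4.07 was followed by HOXA13 at 0.0456 ± 0.0291, and HOXD9 at 22.3 by HOXD10 at 1.497 ± 0.0860 and HOXD11 at 0.179 ± 0.120. None of the members of groups 12 and 13 had 10 counts in every CTRL library.

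**Figure D1:**
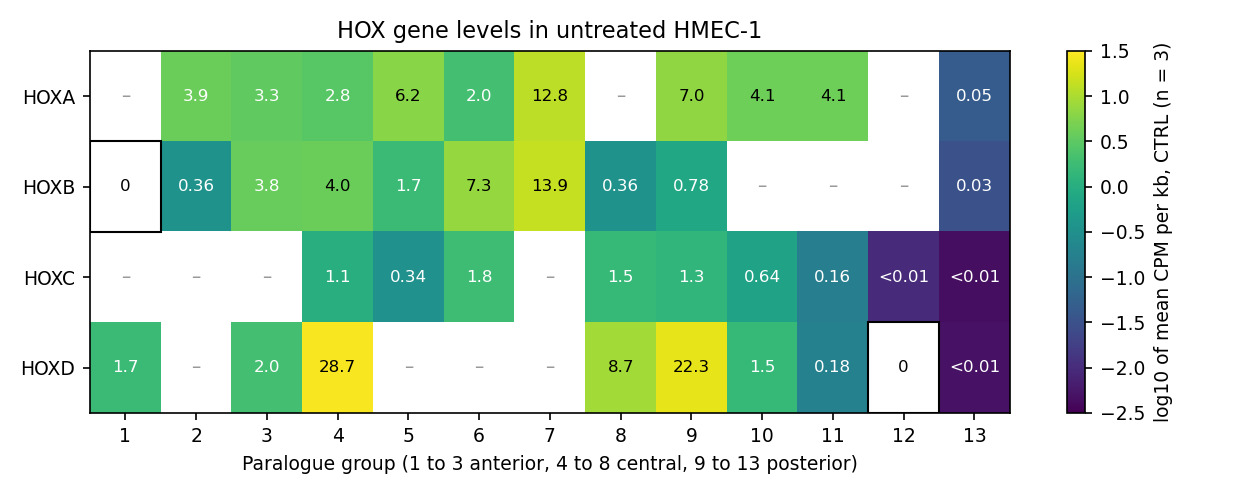
Mean level of each HOX gene in the 3 CTRL libraries in CPM per kb, written in each cell and coloured on a log10 scale, by cluster (rows) and paralogue group (columns), where a dash marks a position with no gene or none shown here and an outlined white cell a gene at 0. HOXD4 (28.7) and HOXD9 (22.3) are the brightest cells, and groups 12 and 13 are at or near 0 in every cluster.

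The members that did not pass the expression filter were at the ends of the clusters. HOXB1 and HOXD12 had 0 counts in all 9 libraries, where 3 counts, the limit that a count of 0 allows, correspond to 0.0869 to 0.115 CPM. HOXC12, HOXC13 and HOXD13 had 0 to 2 counts, HOXB13 0 to 6 and HOXD11 0 to 14. These 7 genes were left out of the test, and a fall in them was not detectable at this depth. Without the filter, the 5 of them with any counts were fitted and none passed by edgeR in any comparison. The other 32 were tested, all 11 of HOXA, 8 of HOXB, 7 of HOXC and 6 of HOXD. HOXA6, HOXA7, HOXA10, HOXC4 and HOXC6 had estimated counts that were not whole numbers in every library, which estimated counts take where reads match more than 1 gene, and 14 members had such values in at least 1 library. Counts of those genes are uncertain to that extent.

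HOXD9, a posterior gene, was lower after 48H of TMAO than in CTRL, and no other HOX gene passed the test. By edgeR's quasi-likelihood test with Benjamini-Hochberg adjustment over 14740 genes, 1 of 32 HOX genes had an adjusted p under 0.05 at 48H, where 10.4% of all tested genes did, and 5.29% did in the lower direction. Of the HOX genes, 0 also reached the 1.4-fold change used in the study (1.8% of all genes). HOXD9 had 1245, 1257 and 1301 normalised counts in the CTRL libraries, 1036, 1060 and 1151 at 24H, and 978, 981 and 993 at 48H. The 48H libraries lay below all 24H libraries, and these below all CTRL libraries. The log2 fold change of HOXD9 at 48H was -0.37 (standard error 0.0516, 95% interval -0.48 to -0.25, edgeR adjusted p = 0.000905), a 0.776-fold level. The log2 fold change at 24H was -0.23 (standard error 0.0515, edgeR adjusted p = 0.194), and the difference between 48H and 24H was -0.14 (standard error 0.0515, edgeR adjusted p = 0.133), neither of which passed. HOXD9 at 48H kept its direction and passed at an adjusted p under 0.05 in 15 of 15 other fits, with log2 fold changes from -0.38 to -0.26. With each library left out the range was -0.38 to -0.35, so the smallest change came from another choice of processing. The HOXD9 transcript was 62.7% GC, the highest of the tested HOX genes. Their median was 54.4%, and that of all tested genes 49.1%. HOXD9 also passed in the fit with a correction for GC content and length. How much of its change goes with GC content was not tested.

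The neighbours of HOXD9 in the cluster did not pass. HOXD8, which lies on one side of it, had 692, 675 and 721 normalised counts in CTRL and 690, 704 and 636 at 48H, and the groups overlapped (log2 fold change -0.04, standard error 0.0665, 95% interval -0.18 to 0.10, edgeR adjusted p = 0.753). HOXD10, on the other side, had 94.4, 92.6 and 84.6 in CTRL and 82.6, 105.7 and 102.4 at 48H, again with overlap (log2 fold change 0.10, 95% interval -0.21 to 0.41, edgeR adjusted p = 0.717). Within each library, the log2 ratio of HOXD9 to HOXD8 counts does not depend on the scaling of libraries. It was 0.85, 0.90 and 0.85 in CTRL, 0.74, 0.59 and 0.78 at 24H, and 0.50, 0.48 and 0.64 at 48H, so that the CTRL libraries lay above all treated ones. The ratio of HOXD9 to HOXD10 was 3.81 ± 0.117 (SD, n = 3) in CTRL, 3.69 ± 0.0486 at 24H and 3.35 ± 0.187 at 48H on the same scale. Ratios to genes further off in the cluster did not separate the groups, with HOXD9 to HOXD4 at 0.063, 0.13 and -0.21 in CTRL and -0.041, -0.23 and -0.31 at 48H, and HOXD9 to HOXD3 at 3.06 ± 0.218 (SD, n = 3) in CTRL, 3.18 ± 0.180 at 24H and 3.13 ± 0.238 at 48H. The other members of paralogue group 9 had log2 fold changes at 48H of 0.02 for HOXA9, 0.12 for HOXB9 and -0.04 for HOXC9, none of which passed.

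**Figure D2:**
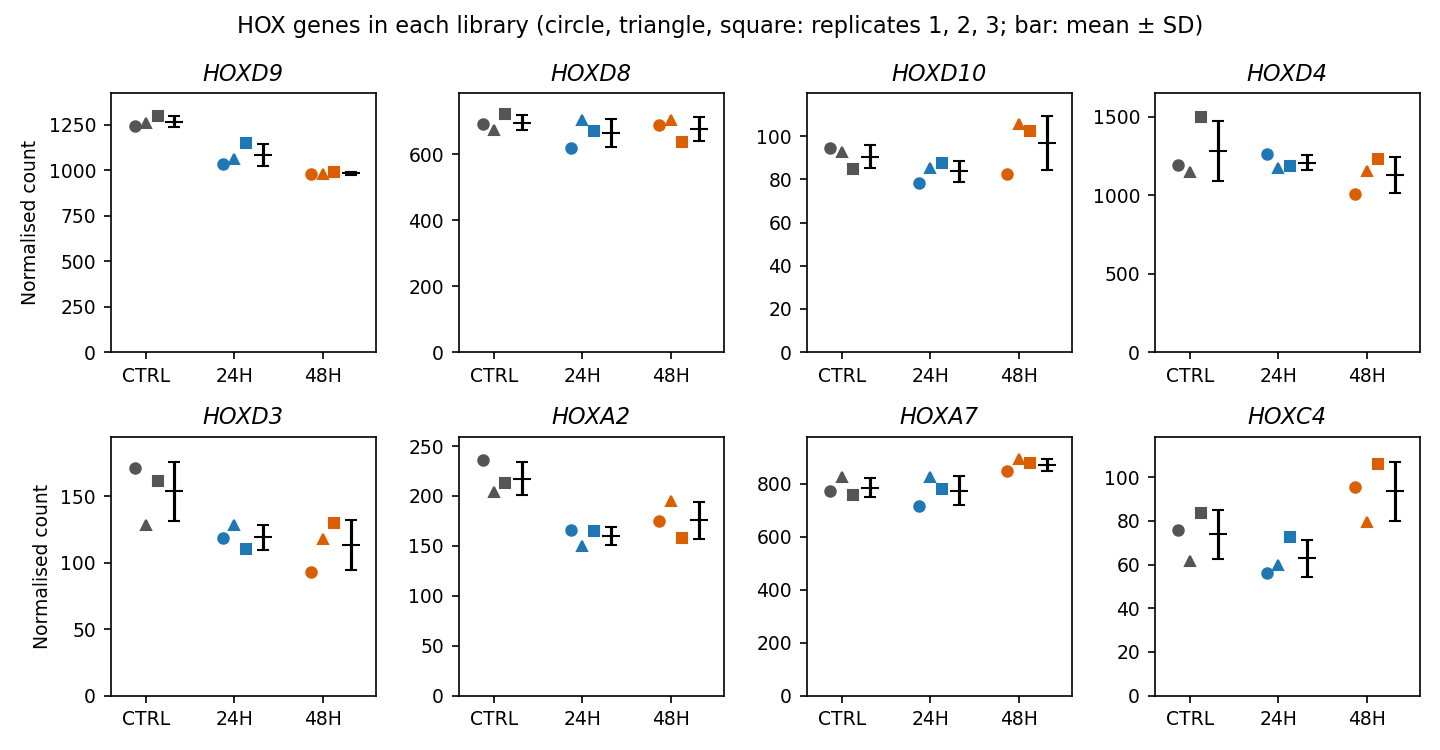
Normalised counts of 8 HOX genes in each library (points, replicates 1 to 3 as circle, triangle and square) with the mean ± SD (black bars), for CTRL, TMAO 24H and TMAO 48H on axes that start at 0. HOXD9 steps down from CTRL (1245 to 1301) to 48H (978 to 993) without overlap, while HOXD8 and HOXD10 overlap between groups.

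Among the 32 tested HOX genes, 5 were lower and 1 was higher at 48H at an unadjusted p under 0.05, against 12.6% and 13.2% of all tested genes in those directions. Groups did not overlap in 4 genes that were lower (13% of all genes) and 1 that was higher (14.7%). The shares of HOX genes are thus close to or under the background, except that 20 of 32 (62.5%) had a log2 fold change below 0, where 49% of all genes did. The median log2 fold change of the tested HOX genes was -0.12, against 0.0040 over all genes. It ranged from -0.15 to -0.06 with each library left out, with -0.069 without CTRL replicate 2 and -0.061 without CTRL replicate 3, and the median differences of single 48H libraries from CTRL were -0.16, -0.031 and -0.067 for replicates 1 to 3. With a correction for GC content and length, added after the data were seen, the median over the HOX genes was -0.057. In that fit 18 of 32 lay below 0, against 48.1% of all genes. HOXA7 also passed in it, giving 2 HOX genes (log2 fold change 0.20, edgeR adjusted p = 0.0389).

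Of the 4 other HOX genes that were lower at an unadjusted p under 0.05, HOXD3, HOXA2 and HOXB3 are anterior and HOXB4 is central. HOXD3, known for its angiogenic activity, had 171, 128 and 161 normalised counts in CTRL, 119, 129 and 110.1 at 24H, and 93.1, 118 and 130.03 at 48H. CTRL replicate 2 lay within the range of the treated libraries. The log2 fold change of HOXD3 was -0.37 at 24H (standard error 0.152, edgeR adjusted p = 0.663) and -0.43 at 48H (standard error 0.153, edgeR adjusted p = 0.0891). HOXA2, known for its role in hindbrain and branchial arch patterning, had 236, 204 and 213 in CTRL, 166, 149.7 and 165 at 24H, and 175, 195 and 158 at 48H. Both treated groups lay below CTRL without overlap. Its log2 fold change was -0.44 at 24H (standard error 0.112, edgeR adjusted p = 0.318) and -0.31 at 48H (standard error 0.112, edgeR adjusted p = 0.0991), so the values did not pass. HOXB4, a gene known from blood stem cells, and HOXB3 had log2 fold changes at 48H of -0.20 and -0.18 (edgeR adjusted p = 0.127 and 0.133). By position, 6 of 7 anterior genes had a log2 fold change below 0 at 48H (median log2 fold change -0.22), as did 10 of 15 central genes (median -0.16) and 4 of 10 posterior genes (median 0.06). Without TMAO 48H replicate 3, the counts were 6 of 7, 9 of 15 and 4 of 10, with medians of -0.23, -0.16 and 0.02. The difference between positions was not tested.

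HOXA7 was the one gene at 48H with an unadjusted p under 0.05 and a higher value. It had 773, 826 and 759.7 normalised counts in CTRL, 718, 825 and 782 at 24H, and 849, 893 and 879 at 48H. The 48H libraries lay above all others, but the log2 fold change of 0.15 (standard error 0.0627, edgeR adjusted p = 0.144) did not pass. HOXD4, the gene with the highest level, had 1191, 1148 and 1500.2 in CTRL, 1261, 1173 and 1185 at 24H, and 1006, 1151 and 1229 at 48H. Its groups overlapped, and CTRL replicate 3 stood above the other 8 libraries (log2 fold change at 48H -0.18, standard error 0.0936, edgeR adjusted p = 0.243). Of the other 6 genes among the 10 highest, HOXB6, HOXA5 and HOXA11 had log2 fold changes of -0.16, -0.19 and -0.20 at 48H, and HOXB7, HOXA9 and HOXA10 of 0.09, 0.02 and 0.10, with edgeR adjusted p from 0.223 to 0.884. All of them overlapped with CTRL.

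**Figure D3:**
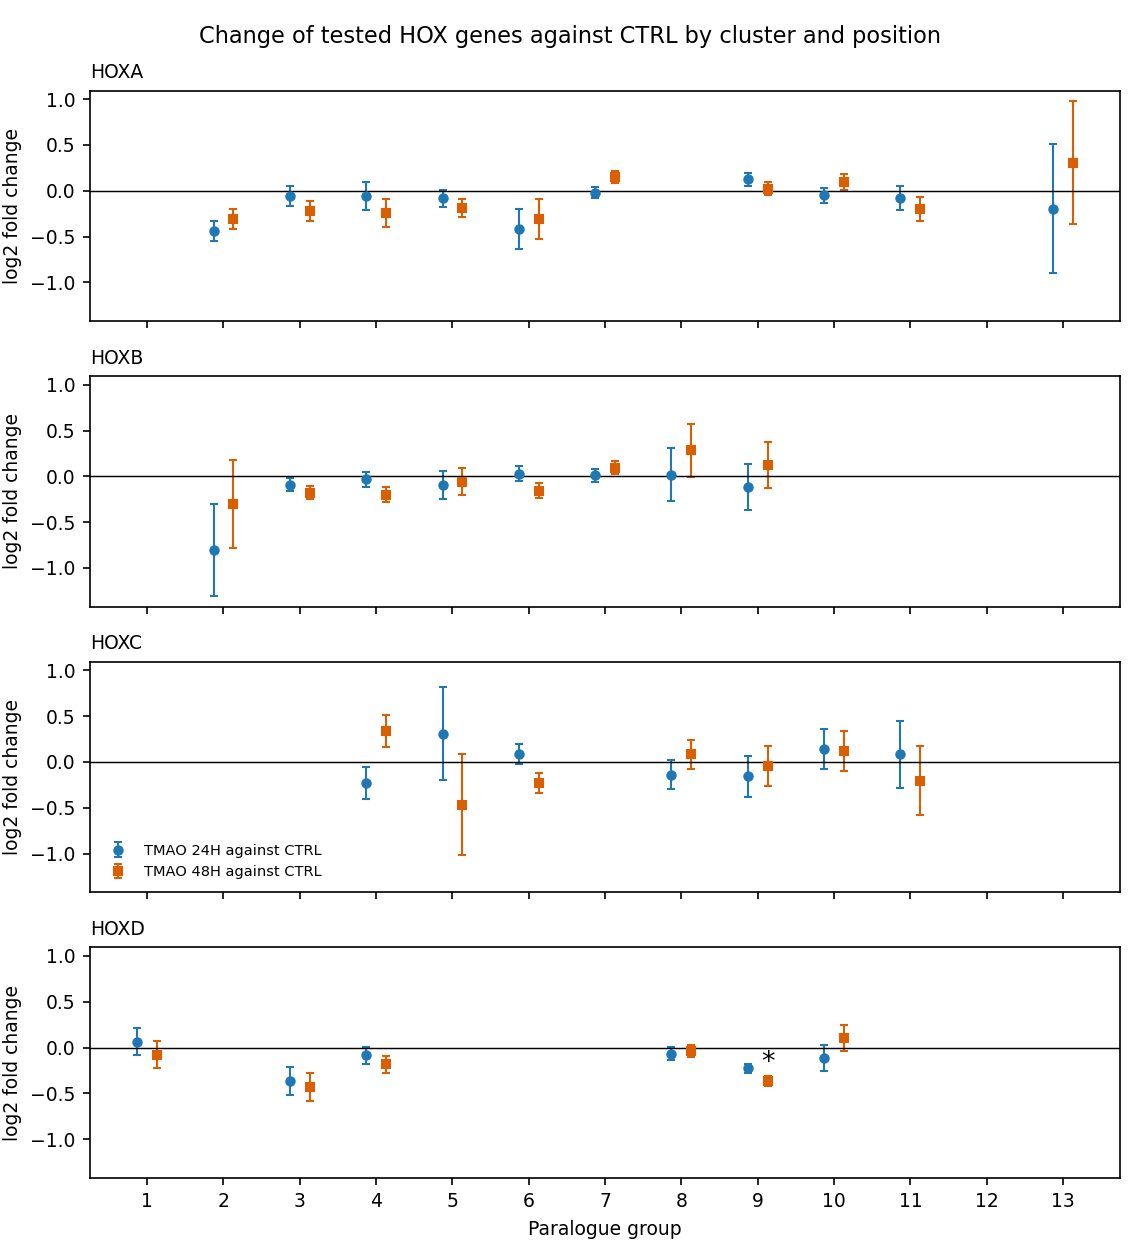
Log2 fold change against CTRL of the tested HOX genes named here at 24H (circles) and 48H (squares), with bars of 1 standard error, by paralogue group in each cluster, where a star marks an edgeR adjusted p under 0.05. The star stands over HOXD9 at 48H (-0.37), and the widest bars belong to genes with few counts such as HOXA13 and HOXC5.

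At 24H, no HOX gene passed. The count was 0 of 32 by edgeR's quasi-likelihood test at an adjusted p under 0.05, where 0.095% of all tested genes passed, and 0 with the 1.4-fold limit (0.0475%). DESeq2 also gave 0. At an unadjusted p under 0.05, 3 HOX genes were lower, HOXD9, HOXA2 and HOXD3 (4.47% of all genes), and 0 were higher (2.77%). Groups did not overlap in 2 genes that were lower, HOXA2 and HOXD9 (7.52% of all genes), and in 1 that was higher, HOXA9 (6.73%). HOXA9, known as a regulator of endothelial receptors and adhesion molecules, had 422, 443 and 443 normalised counts in CTRL and 458, 503 and 465 at 24H, with a log2 fold change of 0.13 that did not pass (standard error 0.0687, edgeR adjusted p = 0.764). A log2 fold change below 0 was seen in 22 of 32 genes, against 50.2% of all genes, and the median log2 fold change was -0.07, against -0.00042 over all genes. It was -0.041 with the correction for GC content and length and -0.046 without CTRL replicate 3. The lowest value was that of HOXB2 (-0.80, standard error 0.505, edgeR adjusted p = 0.804), a gene with 6.27 to 22.9 normalised counts in CTRL and 24H libraries.

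Tested directly, 48H and 24H differed in 0 of 32 HOX genes at an adjusted p under 0.05 (7.53% of all genes) and in 0 with the 1.4-fold limit (1.71%), by DESeq2 in 0. At an unadjusted p under 0.05, 5 HOX genes differed (22.1% of all genes), with HOXC4 and HOXA7 higher and HOXC6, HOXB6 and HOXD9 lower at 48H. The smallest adjusted p was that of HOXC4 (log2 difference 0.57, standard error 0.177, edgeR adjusted p = 0.0714), which had 56.0, 59.9 and 72.5 normalised counts at 24H and 95.5, 79.3 and 105.9 at 48H. HOXC6 lay the other way, with 178, 199 and 192 at 24H and 143, 159 and 155 at 48H (log2 difference -0.31, standard error 0.111, edgeR adjusted p = 0.113). Both genes separated the groups without passing. HOXC4, HOXC5 and HOXC6 share transcribed sequence and had counts split between them, and their summed normalised counts were 271 ± 34.7 (SD, n = 3) in CTRL, 276 ± 6.62 at 24H and 260 ± 8.38 at 48H. The sums at 48H, from 250.1 to 266, lay within the range of CTRL (236 to 305) but below the sums at 24H, from 269 to 282.1. The difference of these sums was not tested.

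Summed over all 39 members, normalised HOX counts were 9343 to 9959 in CTRL, 9049 to 9179 at 24H and 8638 to 9040 at 48H, so that neither treated group overlapped with CTRL. The mean was 0.948 of CTRL at 24H and 0.923 at 48H. HOXD carried most of the difference, with 3485, 3417 and 3891 in CTRL, 3232, 3253 and 3318 at 24H, and 2950 (replicate 1), 3172 and 3175 at 48H (0.908 and 0.861 of CTRL). HOXB counts were 2422, 2305 and 2463 in CTRL and 2254, 2256 and 2236 at 48H (0.938 of CTRL). HOXA and HOXC sums at 48H overlapped with CTRL, with 0.974 and 0.987 of it, while HOXA at 24H (2985.5 to 3066) lay below CTRL (3091 to 3187). HOXD4 and HOXD9 held most of the HOXD counts, and the sums are described without a test. In bulk RNA, fewer cells of a type and less RNA per cell cannot be told apart.

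**Figure D4:**
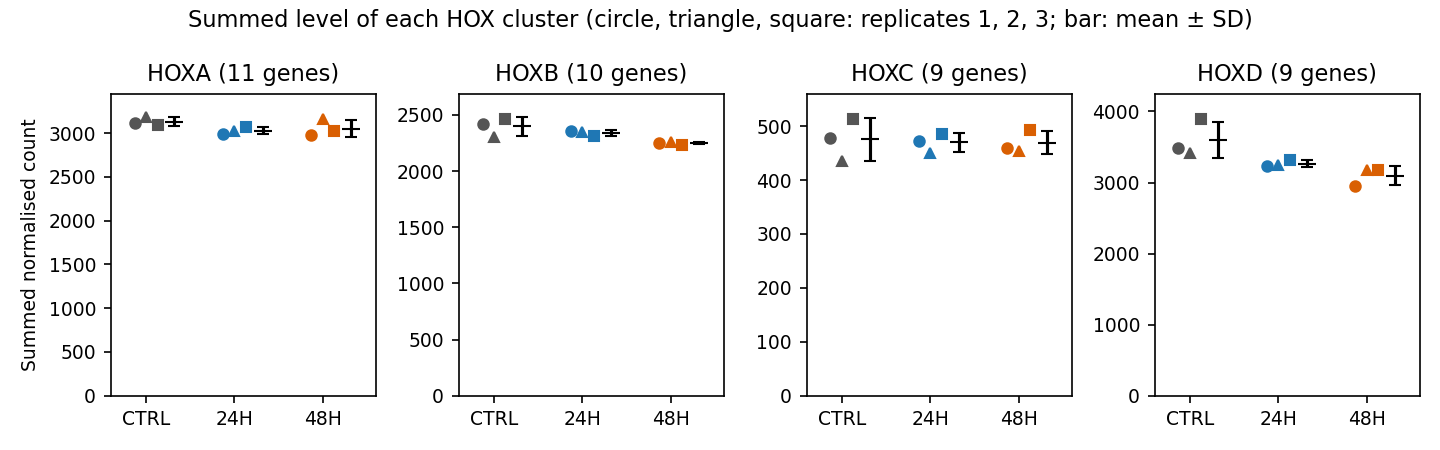
Summed normalised counts of all members of each HOX cluster in each library (points, replicates 1 to 3 as circle, triangle and square) with the mean ± SD (black bars), on axes that start at 0. The HOXD sums are 3417 to 3891 in CTRL and 2950 (replicate 1) to 3175 at 48H, while the HOXA and HOXC sums at 48H overlap with CTRL.

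Other values moved at 48H beside those of HOXD9. The summed normalised counts of 20 endothelial markers were 138143 to 151209 in CTRL, 139304 to 146435 at 24H and 123515 to 130476 at 48H. Those of 12 fibroblast and mural markers were 31587 to 36519, 31914 to 34368 and 21327 to 23351, mostly COL1A1 and COL1A2 (20626 ± 1438 and 8983 ± 960 in CTRL). Those of 8 epithelial markers were 23421 to 25634, 22198 to 23583 and 19297 to 21844, mostly KRT18 (20037 ± 1468 in CTRL, 16983 ± 408 at 48H). The sums therefore stand for few genes. At an adjusted p under 0.05 by edgeR at 48H, 10 of 19 tested endothelial markers were lower and 0 higher. Of 10 tested fibroblast and mural markers, 3 were lower and 2 higher, and of 8 epithelial markers 1 was lower and 0 higher. Of all genes, 10.4% passed. None of these 3 lists had a member at 0 in all libraries, but 2 of 12 fibroblast and mural markers stayed under 10 counts throughout. Leukocyte markers summed to 593 to 716 over all libraries, with 2 of 8 at 0 throughout and 5 of 8 under 10 counts. The part of these values in the change of HOXD9 was not tested.

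Non-coding RNAs of the clusters did not pass. Of 8 tested rows, 7 were below 0 in log2 fold change at 48H (49% of all genes), with a median of -0.39, and 0 had an adjusted p under 0.05 by edgeR (10.4%), while 3 were lower at an unadjusted p under 0.05 (12.6%). The most abundant was HOXD-AS1, with 793 ± 37.4 normalised counts (SD, n = 3) in CTRL. HOXA-AS2, transcribed opposite to HOXA3, had 144, 131 and 160.2 normalised counts in CTRL and 87.3, 96.0 and 143 at 48H (log2 fold change -0.42, standard error 0.174, edgeR adjusted p = 0.146). HOTAIR, a long RNA of the HOXC cluster known for binding Polycomb proteins, had 42.8, 53.8 and 60.5 in CTRL and 40.7, 36.99 and 35.7 at 48H (log2 fold change -0.47, standard error 0.208, edgeR adjusted p = 0.175). The groups did not overlap for HOTAIR and overlapped for HOXA-AS2. HOTAIRM1, another long RNA of the HOXA cluster, had a log2 fold change of -0.36 (standard error 0.162, edgeR adjusted p = 0.183), and HOXD-AS2, HOXA-AS3, HOXA11-AS, HOXD-AS1 and HOXA10-AS had -0.58, -0.59, -0.19, -0.04 and 0.21. Whether counting used strand is not stated, so reads of a HOX gene and its antisense partner may not be separated. The microRNA rows MIR10A, MIR10B, MIR196A1, MIR196A2, MIR196B and MIR615 were at 0 in all libraries. No library for small RNAs was described, so these values do not show that the microRNAs were absent.

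The regulators of HOX genes gave few calls. HOX cofactors (PBX, MEIS, PKNOX and TGIF genes) had 0 of 10 tested members with an adjusted p under 0.05 by edgeR at 48H (3 at an unadjusted p under 0.05) and 0 of 10 at 24H. Polycomb genes rose in 2 of 31, CBX7, a reader of the silencing mark (log2 fold change 0.32, edgeR adjusted p = 0.00240), and SUZ12, a core subunit of the complex that writes it (0.23, edgeR adjusted p = 0.0148). SUZ12 did not pass without CTRL replicate 1, CTRL replicate 2 or TMAO 48H replicate 2 (edgeR adjusted p from 0.0501 to 0.0681). A list of Trithorax genes, H3K27 demethylases and genes of CTCF and cohesin had 2 of 21 that rose, NIPBL, the cohesin loader (0.20, edgeR adjusted p = 0.0192), and KDM6B, which removes the silencing mark (0.25, edgeR adjusted p = 0.0401). KDM6B did not pass without any single CTRL library, or without TMAO 48H replicate 2 or 3 (edgeR adjusted p from 0.0714 to 0.166), and NIPBL not without CTRL replicate 2 or TMAO 48H replicate 2 (0.0798 and 0.0948). All these shares were near or below the 10.4% of all genes.

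Retinoid pathway genes passed in 5 of 13 at 48H, 3 lower and 2 higher, where 10.4% of all genes passed and 5.29% were lower. CRABP2, which carries retinoic acid to its receptor, fell from 117 ± 9.598 normalised counts (SD, n = 3) in CTRL to 64.2 ± 4.93 (log2 fold change -0.87, edgeR adjusted p = 0.00146), and DHRS3, which reduces retinal, from 695 ± 39.8 to 499 ± 41.3 (-0.48, edgeR adjusted p = 0.00126). ALDH1A3 and ALDH1A1, which make retinoic acid, rose by 0.38 and 0.22 on the log2 scale (edgeR adjusted p = 0.00168 and 0.0135), the second not with GC and length correction (edgeR adjusted p = 0.0688). Endothelial genes reported downstream of HOX proteins fell in 7 and rose in 2 of 22 at 48H, where 10.4% of all genes passed and 5.29% were lower. Integrin subunit ITGA5 (-0.31) and the membrane protease MMP14 (-0.22) fell, and ICAM1, a leukocyte adhesion molecule (0.78), and FGF2, an angiogenic growth factor (0.38), rose, with edgeR adjusted p from 2.09e-05 to 0.00790. At 24H, 0 genes of the Polycomb, Trithorax and cohesin, retinoid and downstream lists had an adjusted p under 0.05 by edgeR, and 0 of 31, 2 of 21, 2 of 13 and 5 of 22 had an unadjusted p under 0.05, where 4.47% of all genes were lower and 2.77% higher. Genes at the edges of the clusters (0 of 8) and ParaHOX genes (0 of 2) gave no call at 48H by edgeR, with 2 and 0 at an unadjusted p under 0.05.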

How the data were processed

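The deposited values were estimated counts (expected counts) per gene symbol for 9 libraries, which the authors made with the nf-core RNAseq pipeline (release 3.6) after trimming (Trim Galore, per the submitters' processing notes), and they were not normalised. The quantifier, genome build, annotation and strand setting are not given in the sources used here. Each count was rounded to an integer. Libraries were grouped by their labels and fitted together by the quasi-likelihood method of edgeR (4.0.16, R 4.3.3) after filterByExpr, which kept 14740 genes, and TMM scaling. P-values were adjusted over all tested genes by Benjamini-Hochberg, with a threshold of 0.05, and F statistics gave the standard errors. P-values come from edgeR because an exact permutation test of 3 libraries against 3 reaches no lower than p = 0.1.

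CPM per kb used the exon length of GENCODE release 29 (basic set), which had all 39 members. With the longest transcript in place of the union of exons, the 8 highest genes kept their order. Coordinates of genes are not given, except for RefSeq upstream sequences. Every tested HOX gene could be named with its values, except 1 that is not reported here, full statistics went to those that passed and to the 10 highest, and from each other list at most 4 genes that passed were named by smallest p. CDH5 and the other cell type markers given as single genes, and the genes described for an unadjusted p or for their place beside HOXD9, were singled out after their values were seen. The members and lists were chosen with earlier results of these data known. Alternatives were RLE factors, other filters, the older quasi-likelihood fit, a replicate block, fits of only 2 groups, DESeq2 1.42.0, the 1.4-fold limit and each library left out. A correction for GC content and length (known for 89.8% of tested genes), the removal of ribosomal RNA genes and counts by position without TMAO 48H replicate 3 were added after the data were seen. The procedure was also run on simulated counts drawn from its own fitted means and spread. These held no GC effect and no library made to stand apart in single genes, so they do not bear on those features.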

Additional observations from a re-analysis of the deposited data

Results flagged for a closer look

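No tested HOX gene differed between 48H and 24H at an adjusted p under 0.05 by edgeR. The results below concern list genes that passed edgeR's direct test of 48H against 24H (adjusted over 14740 genes, n = 3 libraries per group). Only genes named for passing at 48H against CTRL, at most 4 per list, were followed. Both tests use the same 48H libraries, so the calls are not independent. Over the whole lists, the direct test gave 3 lower and 2 higher of 13 retinoid genes and 4 lower and 2 higher of 22 downstream genes. It gave 0 lower and 2 higher of 31 Polycomb genes, and 0 lower and 2 higher of 21 Trithorax and cohesin genes. Of all genes, 7.53% passed. Among retinoid genes, CRABP2 differed by -0.94 on the log2 scale (edgeR adjusted p = 0.000658), DHRS3 by -0.47 (0.00114), ALDH1A1 by 0.39 (0.000305) and ALDH1A3 by 0.23 (0.0311). Among genes reported downstream of HOX proteins, ICAM1 differed by 0.85 (edgeR adjusted p = 6.52e-06), FGF2 by 0.47 (9.46e-05), MMP14 by -0.24 (0.00326) and ITGA5 by -0.22 (0.0436). Among chromatin regulators, KDM6B differed by 0.31 (edgeR adjusted p = 0.0184), CBX7 by 0.25 (0.0129) and SUZ12 by 0.19 (0.0441).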

How the results depend on the processing

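HOXD9 at 48H had an adjusted p under 0.05 in 15 of 15 other fits, its fold being under the 1.4-fold limit (edgeR or DESeq2 adjusted p from 2.10e-06 to 0.00697). The number of HOX genes called at 48H was 0 with the 1.4-fold limit and 2 with GC and length correction, and 1 in the other alternatives, including each library left out. GC and length correction moved the median log2 fold change of the HOX genes at 24H to -0.041 and at 48H to -0.057, and gave HOXA7 0.016 at 24H and HOXD8 0.037 at 48H, both turned in sign. Without division by length, HOXB held 24.96%, HOXC 4.95% and HOXD 37.4% of HOX counts in CTRL. Of 720 alternative values of 16 HOX genes, 703 kept direction and side of the threshold and 16 turned in sign, none of them past the threshold. Of these, 14 came from leaving out 1 library, where log2 fold changes ranged at 24H from -0.068 to 0.032 (HOXA7), -0.002995 to 0.072 (HOXB6), -0.020 to 0.053 (HOXB7), -0.092 to 0.005352 (HOXA10) and -0.16 to 0.047 (HOXD4), at 48H from -0.002482 to 0.036 (HOXA9) and -0.070 to 0.00209 (HOXD8), and between 48H and 24H from -0.026 to 0.069 (HOXD8), -0.17 to 0.056 (HOXD3) and -0.29 to 0.025 (HOXA11). The cause was not tested. Replicate numbers did not pair the libraries: deviations of same-numbered libraries correlated from -0.12 to 0.091 over 9 pairs, against -0.10 to 0.16 over 18 others. With the replicate number as a block, 0, 1 and 0 HOX genes passed at 24H, 48H and between them, while calls over all genes went from 14, 1537 and 1110 to 1, 948 and 731. Fits of only the groups compared gave 981 genes at 48H. Genes with few counts, such as HOXA13 and HOXC5, had intervals too wide to show a change of the size of that in HOXD9.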
